A study of Mus musculus with 12 samples.

Results

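Rgs2, Rgs10, Rgs14, Rgs16 and Rgs19 encode regulators of G protein signalling, and their transcripts were followed through 12 RNA-seq libraries of naive mouse CD4 T cells. They are 5 of the 10073 genes in the table, taken by symbol and selected on their known levels in these same libraries, so that their levels, differences and counts past a threshold are all given as a description. All 5 had a mean of at least 0.5 RPKM, the reads of a gene divided by its length in kilobases and by the library's depth in M (mega) reads, and so entered the fits, with 10021 genes in all.

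The libraries came from 4 sorted populations of each of 3 mice, so each population had 3 libraries, named by population letter and mouse number. All mice were untreated and carried the Tg(Nr4a1-EGFP)GY139Gsat transgene, in which Nr4a1 regulatory sequence drives GFP, and the Foxp3tm1Flv mutation, a red fluorescent reporter of regulatory T cells, on a C57/BL6 background. The labels state no age, and no group without the 2 reporter alleles was analysed here. From spleen and lymph nodes, CD4 positive cells with no Foxp3 reporter signal and little CD44 were sorted, with no T cell receptor stimulus. The labels call population A low in Nur77-GFP and Ly6C positive, B intermediate in GFP and Ly6C positive, C intermediate in GFP and Ly6C negative, and D high in GFP and Ly6C negative. GFP reads the basal signal through the T cell receptor of resting naive cells, and the comparisons ask how the transcriptome differs with it.

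Heterotrimeric G proteins carry signals from surface receptors such as chemokine receptors, and stay active while their alpha subunit holds GTP. RGS proteins bind active alpha subunits and speed up GTP hydrolysis, which ends the signal. In lymphocytes they are best known for limiting the response to chemokines and so for tuning migration between and within lymphoid organs.

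The transcripts of the sorted markers did not follow the labels in every library, so each letter below stands for the libraries labelled with it. Nr4a1 (Entrez 15370), the gene whose regulatory sequence drives the GFP, lay at 57.7 to 73.3 RPKM in A1, B2, B3, D1, D2 and D3 and at 22.9 to 35.97 RPKM in A2, A3, B1, C1, C2 and C3. A1 and B1 were thus on the other side of this gap from the rest of their populations, and the C libraries, labelled GFP intermediate, lay at 23.4 to 28.3 RPKM, beside A2 and A3. Ly6c1, which encodes a form of Ly6C, ranged from 58.1 to 72.6 RPKM in A and from 37.1 to 50.2 in B, both labelled Ly6C positive, and from 59.3 to 67.0 in C and from 38.2 to 48.4 in D, both labelled Ly6C negative. A and D thus ran as labelled and B and C did not, and A1 (63.0 RPKM) and B1 (50.2) stayed with their own populations in Ly6c1. Of 8 CD4 T cell markers 8 were listed, summing to 2049 to 2280 RPKM. Of 4 regulatory T cell markers (Foxp3, Il2ra, Ikzf2 and Ctla4) 4 were listed, summing to 32.8 to 45.7 RPKM in the same 6 libraries that were high in Nr4a1 and to 8.20 to 13.4 RPKM in the other 6. C3 stood apart in Jchain, an antibody chain, at 709 RPKM against 0.515 to 6.33 RPKM elsewhere, and in Cd79a, a B cell receptor chain, at 37.4 RPKM against 3.57 to 8.80. It also stood apart in Cd44, the gene of a sorted marker, at 12.8 RPKM against 5.92 to 7.4 RPKM elsewhere. The other B cell markers (5 of 6) and all 3 NK cell markers were not among the listed genes. Depth ran from 6.31 to 9.07 M reads.

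The promoter sequences of Rgs16, Rgs10 and Rgs2 are printed because these 3 genes had the widest relative spread over libraries. Each is the 250 bases before the annotated start, read 5′ to 3′ on the strand of the gene, from RefSeq on build GRCm38.p6, with motif matches in capitals. The windows are chr1:153740103-153740352 (plus strand) for Rgs16, chr7:128418173-128418422 (minus strand) for Rgs10 and chr1:144004150-144004399 (minus strand) for Rgs2.
Rgs16: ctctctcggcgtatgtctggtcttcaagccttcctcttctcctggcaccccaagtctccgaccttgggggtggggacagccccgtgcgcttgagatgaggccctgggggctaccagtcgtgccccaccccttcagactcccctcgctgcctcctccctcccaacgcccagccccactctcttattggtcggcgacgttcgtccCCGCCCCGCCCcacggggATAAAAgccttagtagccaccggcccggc
Rgs10: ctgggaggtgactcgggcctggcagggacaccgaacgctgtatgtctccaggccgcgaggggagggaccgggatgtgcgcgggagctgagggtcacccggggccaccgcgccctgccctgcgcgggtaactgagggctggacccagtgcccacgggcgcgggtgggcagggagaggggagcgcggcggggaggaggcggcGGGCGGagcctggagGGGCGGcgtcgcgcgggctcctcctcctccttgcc
Rgs2: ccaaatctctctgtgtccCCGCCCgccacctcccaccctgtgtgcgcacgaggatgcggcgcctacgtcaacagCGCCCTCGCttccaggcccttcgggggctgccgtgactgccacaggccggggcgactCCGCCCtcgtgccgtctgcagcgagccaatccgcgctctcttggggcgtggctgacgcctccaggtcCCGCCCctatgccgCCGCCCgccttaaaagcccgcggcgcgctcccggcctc

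RefSeq promoter windows matched 4 of the 5 genes, with 3 windows for Rgs19. GC content was 66.4% for Rgs16, 76.4% for Rgs10 and 72.4% for Rgs2, against a median of 52.4% over 32851 windows of 27025 genes. The Rgs16 window held 17 CG pairs, that of Rgs10 27 and that of Rgs2 30, against a median of 6. Motifs were searched on both strands. The Rgs16 window held ATAAAA, the letters of a TATA-type element, from 29 to 24 bases before the start (present in 17.0% of all windows). It also held the GC box GGGCGG on the opposite strand, in 2 matches that share 1 base (32.7% of windows). The Rgs10 window held GGGCGG at 2 places and the Rgs2 window at 4. The Rgs2 window also held 1 match of the EGR motif GCGNGGGCG, 176 to 168 bases before the start (4.70% of windows). The NR4A motif AAAGGTCA (1.34% of windows), the AP-1 motif TGANTCA (6.75%), the CRE TGACGTCA (1.55%) and the NFAT core GGAAAA (20.4%) had no match in these 3 windows. A match or its absence concerns the letters of these windows only.

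Per length of gene, Rgs10 was the most abundant of the 5 transcripts, with a mean of 95.1 ± 19.8 RPKM over the 12 libraries (SD), above 95% of the genes tested. Rgs14 followed at 56.2 ± 4.06 RPKM, Rgs19 at 30.7 ± 1.68 RPKM and Rgs2 at 18.4 ± 2.24 RPKM. Rgs16 was the least abundant at 2.40 ± 2.21 RPKM, above 10.2% of the genes tested. The coefficient of variation over libraries was 92.2% for Rgs16, 20.8% for Rgs10, 12.2% for Rgs2, 7.23% for Rgs14 and 5.48% for Rgs19. The plot of the 5 genes by population shows every library.

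**Figure D1:**
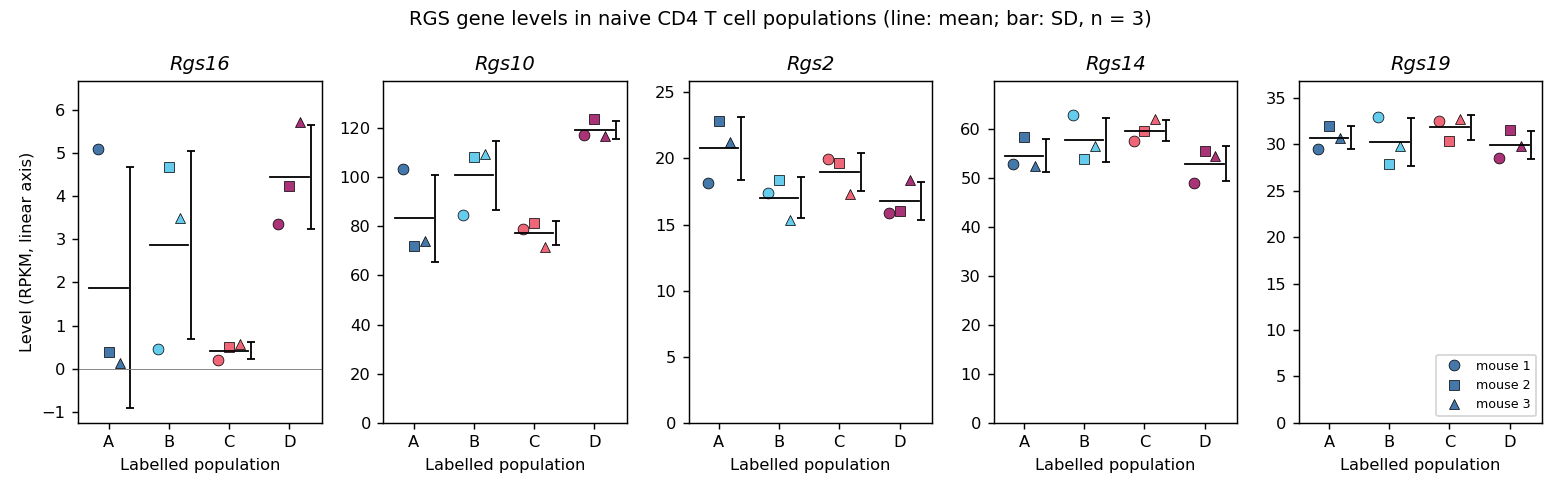
Levels of Rgs16, Rgs10, Rgs2, Rgs14 and Rgs19 (RPKM, linear axis, each panel with its own scale) in the libraries labelled A, B, C and D; points are libraries, shaped by mouse, horizontal lines are means and vertical bars the SD of 3. Rgs16 and Rgs10 show mouse 1 of A among the high libraries and mouse 1 of B among the low ones, while the other 3 genes vary within narrow ranges.

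Rgs16 (Entrez 19734), a regulator that acts on Gi and Gq alpha subunits and is induced in activated lymphocytes, was either low or more than 5 times higher, with no library in between. In the A libraries it stood at 5.10 RPKM in A1, 0.385 in A2 and 0.136 in A3. In the B libraries it stood at 0.455 RPKM in B1, 4.68 in B2 and 3.48 in B3. In the C libraries it stood at 0.189 RPKM in C1, 0.499 in C2 and 0.565 in C3, and in the D libraries at 3.35 RPKM in D1, 4.24 in D2 and 5.73 in D3. A1, B2, B3 and the 3 D libraries were high and A2, A3, B1 and the 3 C libraries low, so D and C did not overlap, while A (0.136 to 5.10 RPKM) and B (0.455 to 4.68) each held both high and low libraries. The lowest of the high libraries (D1) was 5.93-fold above the highest of the low ones (C3), and D3 was 42.1-fold above A3.

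The low values of Rgs16 rest on few reads. The reads recovered from the RPKM values numbered 2 to 9 in the 6 low libraries and 63 to 116 in the 6 high ones. The exact Poisson 95% interval, which covers counting error only, was 0.0164 to 0.490 RPKM for the 2 reads of A3 and 0.259 to 1.07 RPKM for the 9 reads of C3. The lowest bound among the high libraries was 2.58 RPKM (D1), so the intervals of the 2 sets of libraries did not meet, while order within the low set was not resolved at this depth. One read of Rgs16 was worth 0.0472 to 0.0679 RPKM.

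**Figure D2:**
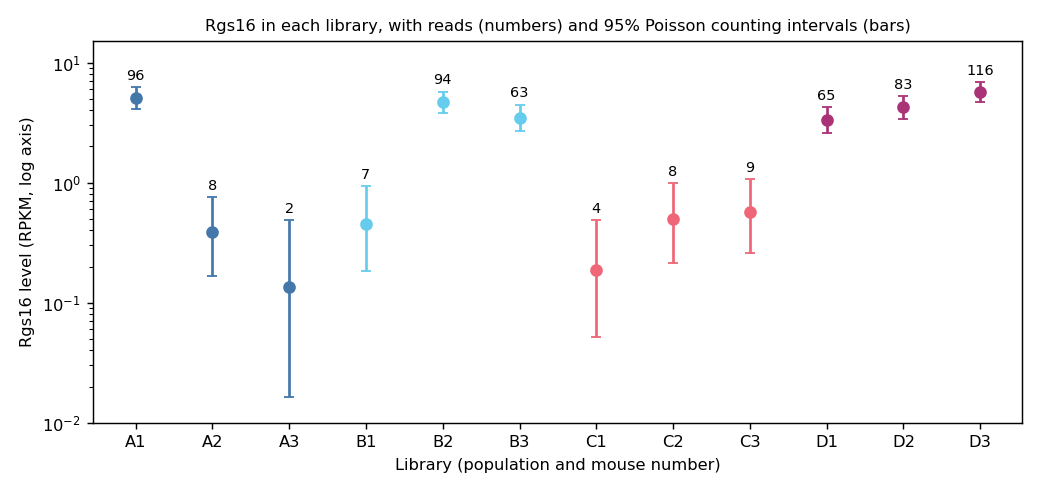
Rgs16 level (RPKM, log axis) in each of the 12 libraries, with the number of reads above each point and bars for the exact Poisson 95% counting interval. The 6 high libraries have 63 to 116 reads and the 6 low ones 2 to 9, and no interval of the first set reaches one of the second.

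By population the order of Rgs16 was D (4.44 ± 1.20 RPKM), B (2.87 ± 2.18), A (1.87 ± 2.80) and C (0.418 ± 0.201; mean ± SD, n = 3 each). Neighbours in this order overlapped in range. Without A1 and B1 the order was D, B (4.08 ± 0.849 RPKM, n = 2), C and A (0.261 ± 0.176, n = 2). D and B then still overlapped, as did C and A, with a gap between B and C. Within mice, D was 17.7-fold above C in mouse 1, 8.50-fold in mouse 2 and 10.1-fold in mouse 3. B was 12.2-fold above A in mouse 2 and 25.6-fold in mouse 3, but stood at 0.0892 of the A level in mouse 1.

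Differences between populations were fitted with limma on log2(RPKM + 0.5), a scale that understates the change of low genes, over all 12 libraries. Rgs16 differed by 2.43 ± 0.73 (log2 difference ± SE) between D and C, by 0.88 ± 0.73 between B and A, by -1.58 ± 0.73 between C and B, and by 1.72 ± 0.73 between D and A. The ratio of the mean RPKM of D to that of C was 10.6. With A1 and B1 left out, a choice made after seeing the data, the same differences were 2.43 ± 0.22, 2.60 ± 0.27, -2.33 ± 0.25 and 2.69 ± 0.25. With C3 also left out, D minus C was 2.55 ± 0.23. The size for B against A thus turned on A1 and B1, which do not enter the difference of D and C. On leaving out each C and D library in turn, that difference ran from 2.23 (without C1) to 2.59 (without D1).

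The 4 regulatory T cell markers parted the libraries into the same high and low sets as Rgs16. Foxp3 lay at 3.25 to 3.999 RPKM in the 6 libraries high in Rgs16 and at 1.15 to 1.53 in the other 6. Ikzf2, another factor of regulatory T cells, lay at 5.02 to 6.62 against 0.444 to 0.686 RPKM. Ctla4, an inhibitory receptor, lay at 21.0 to 34.5 against 5.71 to 10.8 RPKM, and Il2ra, a chain of the interleukin receptor that these cells carry, at 2.21 to 2.85 against 0.290 to 0.758. All 4 markers were above 0 in every library although reporter-negative cells were sorted, and their part in the Rgs16 and Rgs10 levels was not tested. Of 4 proliferation markers 2 were listed (Mki67 and Top2a), summing to 4.71 to 7.18 RPKM in the 6 libraries high in Rgs16 and to 1.82 to 3.29 in 5 of the other 6, with C3 apart at 24.3 RPKM. Their part was not tested either. In bulk libraries fewer cells with a transcript and less of it per cell cannot be told apart.

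Rgs10 (Entrez 67865), a small regulator of Gi-type alpha subunits that is abundant in immune cells, parted the libraries in the same way at a far higher level and with a far smaller ratio. It stood at 103 RPKM in A1, 72.2 in A2 and 74.0 in A3. It stood at 84.7 RPKM in B1, 108 in B2 and 110 in B3. The C libraries held 79.0, 81.2 and 71.8 RPKM, and the D libraries 117, 124 and 117 RPKM (mice 1, 2 and 3). The 6 libraries high in Rgs16 held 103 to 124 RPKM and the other 6 held 71.8 to 84.7 RPKM, so B1 was the highest of the low set and A1 the lowest of the high set.

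The population means of Rgs10 were 119 ± 3.78 RPKM in D, 100.8 ± 13.96 in B, 83.2 ± 17.6 in A and 77.3 ± 4.95 in C (SD, n = 3 each). Every D library lay above every other library, while B and A, and A and C, overlapped. Without A1 and B1, B stood at 109 ± 1.06 RPKM and A at 73.1 ± 1.29 (n = 2 each). Within mice, D was 1.49-fold, 1.52-fold and 1.63-fold above C in mice 1, 2 and 3. The log2 difference was 0.62 ± 0.13 (SE) for D minus C, 0.28 ± 0.13 for B minus A, -0.37 ± 0.13 for C minus B and 0.54 ± 0.13 for D minus A. Without A1 and B1 these were 0.62 ± 0.05, 0.57 ± 0.06, -0.49 ± 0.06 and 0.70 ± 0.06. With C3 also left out, D minus C was 0.57 ± 0.04.

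Rgs2 (Entrez 19735), a regulator that prefers Gq alpha subunits, had its highest values in A. It stood at 18.2, 22.8 and 21.3 RPKM in A1, A2 and A3, and at 17.4, 18.4 and 15.3 RPKM in B1, B2 and B3. It stood at 19.97, 19.6 and 17.3 RPKM in C1, C2 and C3, and at 15.9, 16.1 and 18.4 RPKM in D1, D2 and D3. The order of the population means was A (20.8 ± 2.36 RPKM), C (19.0 ± 1.45), B (17.0 ± 1.56) and D (16.8 ± 1.41; SD, n = 3 each), and each overlapped its neighbour. Rgs2 was lower in B than in A and in D than in A in 3 of 3 mice. The log2 difference was -0.28 ± 0.10 (SE) for B minus A and -0.30 ± 0.10 for D minus A, or -0.38 and -0.39 without A1 and B1. D minus C was -0.17 ± 0.10 and C minus B 0.15 ± 0.10.

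Rgs14 (Entrez 51791), which joins an RGS domain to Rap-binding and GoLoco regions, differed little between libraries. The A libraries held 52.8, 58.3 and 52.3 RPKM and the B libraries 62.7, 53.8 and 56.5 RPKM (mice 1, 2 and 3). The C libraries held 57.4, 59.5 and 61.9 RPKM and the D libraries 48.8, 55.4 and 54.4 RPKM. C (59.6 ± 2.22 RPKM) lay above D (52.9 ± 3.54; SD, n = 3 each) with no overlap, and D was below C in 3 of 3 mice. B (57.7 ± 4.54 RPKM) and A (54.5 ± 3.33) overlapped both. The log2 difference for D minus C was -0.17 ± 0.07 (SE), and B minus A was 0.08 with 12 libraries and -0.00 without A1 and B1.

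Rgs19 (Entrez 56470), a regulator of Gi-type alpha subunits that binds the adaptor Gipc1, had the narrowest relative range of the 5. It ran from 27.8 RPKM in B2 to 33.0 RPKM in B1, both extremes falling within 1 population. The means were 31.8 ± 1.34 RPKM in C, 30.7 ± 1.27 in A, 30.2 ± 2.59 in B and 29.96 ± 1.51 in D (SD, n = 3 each), and all 4 populations overlapped. The log2 differences were -0.09 ± 0.07 (SE) for D minus C, -0.03 for B minus A, 0.08 for C minus B and -0.04 for D minus A.

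**Figure D3:**
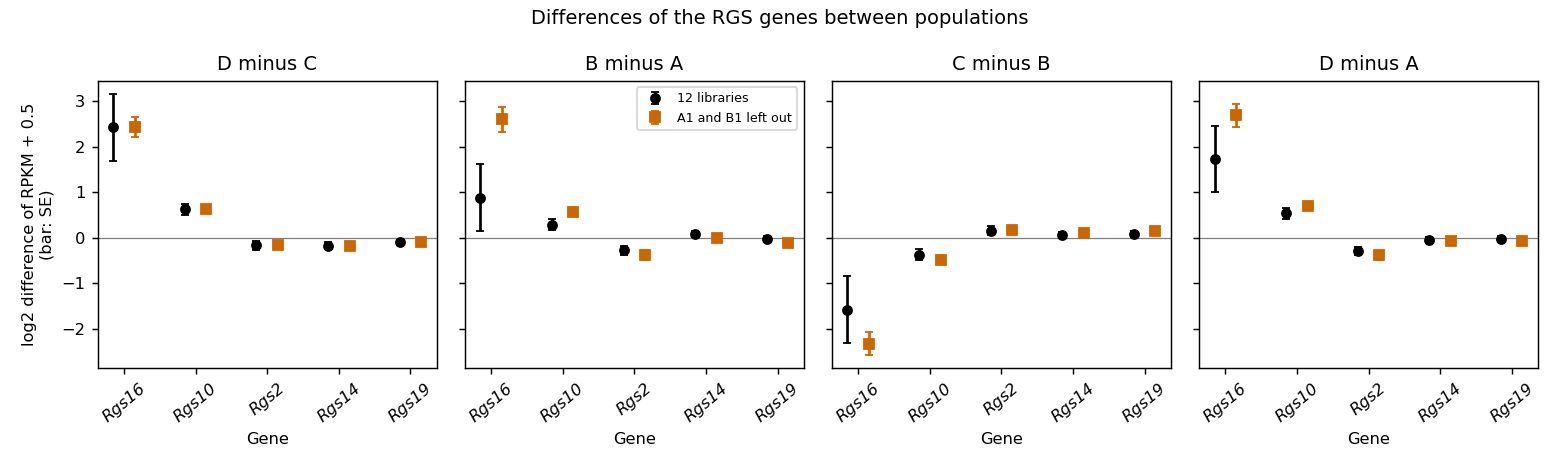
Log2 differences of RPKM + 0.5 (vertical axis, bars for the SE) of the 5 genes in 4 comparisons of labelled populations, fitted to 12 libraries (circles) and without A1 and B1 (squares). Rgs16 in B minus A moves from 0.88 to 2.60 when A1 and B1 are left out; D minus C (2.43) holds neither library, so only its SE could change.

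The count of these genes past the threshold, a Benjamini-Hochberg adjusted p under 0.05 over all genes tested, followed the fit. With limma on 12 libraries 0 of 5 passed in each comparison (unadjusted p under 0.05 for 3 in D minus C, 2 in B minus A, 1 in C minus B and 3 in D minus A). At that unadjusted level stood 1817 of all 10021 genes in D minus C, 2313 in B minus A, 1342 in C minus B and 1905 in D minus A. Of all genes tested, 0.00998% passed in D minus C, 2.23% in B minus A (223 genes, and 2 with the mouse number as a block), 0.00998% in C minus B and 0.00998% in D minus A. Fitted on the 6 libraries compared alone, Rgs10 and Rgs16 passed as higher in D than in C, where 4.80% of all genes passed. In B minus A 0 of 5 passed, where 3.79% did (unadjusted, 1 of 5 and 2379 of all 10021 genes). Without A1 and B1, Rgs10 and Rgs16 passed in D minus C (7.63% of all genes), B minus A (10.9%), C minus B (7.74%, both lower in C) and D minus A (8.84%), and Rgs2 passed as lower in B minus A and D minus A. Leaving out A1 alone gave the same members in D minus C and D minus A and Rgs10 in B minus A, and leaving out B1 alone gave Rgs10 in D minus C. Without A1, 288 of all 10021 genes passed in D minus C, 362 in D minus A and 237 in B minus A. Without B1, 398 passed in D minus C. Since the genes were chosen with these differences known, the counts are a description and nothing is read from them.

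The 3 libraries of D did not overlap those of C for Rgs10, Rgs14 and Rgs16, where 24.0% of all genes did not overlap. Of the 5 genes, 0 did not overlap between B and A (29.2% of all genes), 1 between C and B (Rgs10, 15.1%) and 1 between D and A (Rgs10, 25.8%). The split of libraries seen for Rgs16 and Rgs10 was shared by many genes. Of the 10021 genes tested, 621 (6.20%) were higher in all 6 libraries where Rgs16 was high than in the other 6, and 318 (3.17%) were lower in all 6.

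Other RGS genes of the table behaved in different ways. Rgs3 (Entrez 50780), a relative of Rgs16 that acts on Gi and Gq alpha subunits, showed the same split of libraries. It stood at 12.7 RPKM in A1, 7.69 in A2 and 8.42 in A3, and at 9.50 RPKM in B1, 13.0 in B2 and 13.6 in B3. The C libraries held 8.17, 8.58 and 7.49 RPKM and the D libraries 12.2, 14.3 and 13.4 RPKM. Rgs1, which limits chemokine responses in lymphocytes, ranged from 6.60 RPKM (C3) to 11.9 RPKM (A1), and A (9.42 RPKM or more) did not overlap B (9.13 RPKM or less), while the other pairs of populations overlapped. Rgs11 (8.69 to 11.6 RPKM) and Rgs12 (0.921 to 1.66 RPKM) were likewise not parted by the split. Rgs11 too did not overlap between A (8.70 to 10.3 RPKM) and B (10.5 to 10.8), with B the higher. Between B and A 29.2% of all genes did not overlap.

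**Figure D4:**
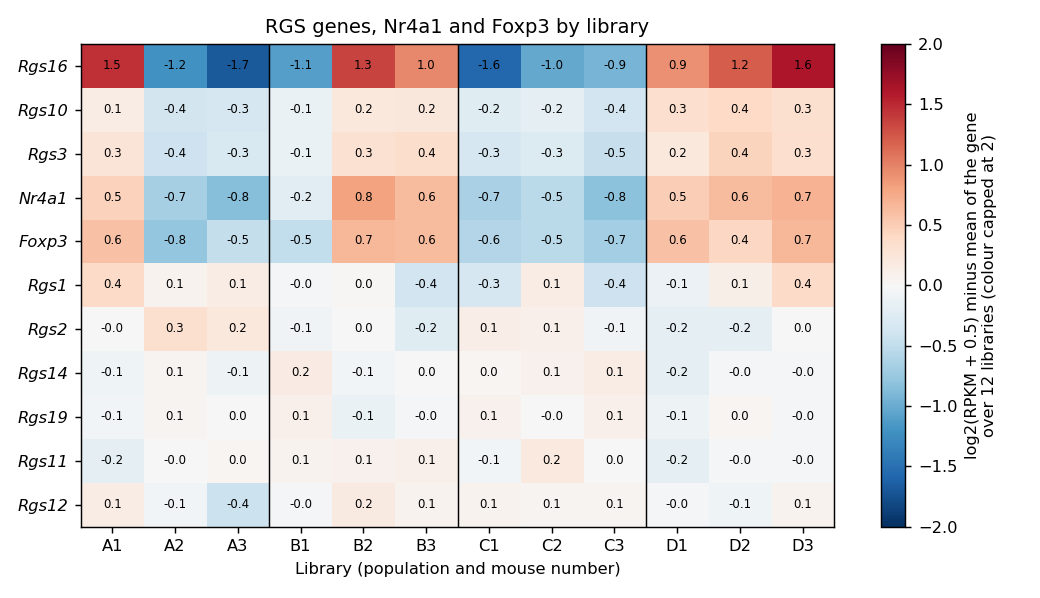
Log2(RPKM + 0.5) of 9 RGS genes, Nr4a1 and Foxp3 in each of the 12 libraries, as the difference from the mean of the gene (printed in each cell, colour capped at 2). Rgs16, Rgs10, Rgs3, Nr4a1 and Foxp3 are above their means in A1, B2, B3 and the D libraries and below them in the other 6, and the remaining RGS genes are not.

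The genes whose pattern was most like that of Rgs16, by Pearson r of log2(RPKM + 0.5) over the 12 libraries, were Cd200 (r = 0.988), Itga9 (0.987), Rasgef1a (0.985), Myb (0.983), Cxcr5 (0.982), Bcl6 (0.980), Spry1 (0.980) and Phactr2 (0.979). Cd200 encodes a surface ligand, Itga9 an integrin, Myb and Bcl6 transcription factors, and Cxcr5 the chemokine receptor of B cell follicles. These 8 genes share the split into 6 high and 6 low libraries. Within the 6 high libraries r ran from -0.26 (Cxcr5) to 0.77 (Cd200) over the 8 genes. Within the 6 low ones, where Rgs16 rests on few reads, it ran from 0.04 (Phactr2) to 0.91 (Cxcr5). Between Rgs16 and Rgs10 r was 0.93 over 12 libraries, -0.19 within the high set and 0.10 within the low set. Rgs16 had r of 0.94 with Rgs3, 0.96 with Nr4a1, 0.96 with Foxp3 and 0.98 with Ikzf2. Within the high and low sets r was 0.14 and -0.06 for Rgs3 and 0.31 and 0.36 for Nr4a1. It was 0.22 and -0.33 for Foxp3 and -0.12 and 0.39 for Ikzf2. All points come from 3 mice and share their libraries, so no p is given.

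For Rgs10 the most alike genes were Btbd11 (r = 0.982), Lad1 (0.981) and Neurl3 (0.978), and Rgs3 stood at 0.976. Rgs2 was most like Ddx5 (0.924), an RNA helicase, Snhg1 (0.911) and Mat2a (0.909). Rgs14 was most like Tap2 (0.958), a subunit of the peptide transporter for class I presentation, Tom1 (0.918) and Abcf3 (0.918). Rgs19 was most like Oat (0.923), Smim26 (0.891) and Pus1 (0.887). Rgs14 and Rgs19 had r of 0.76 with each other.

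Genes of the table that lie near the 5, in RefSeq order, were read in the same libraries, and those named here did not show the split. Dhx9 near Rgs16, with 5 annotated genes between, lay at 46.2 to 58.4 RPKM. Rgs1 lies beyond Rgs2 on the same chromosome, with 5 annotated genes between them, and its levels are given above. Tial1 near Rgs10 lay at 29.96 to 36.4 RPKM, Grk6 near Rgs14 at 129 to 141 RPKM and Tcea2 beside Rgs19 at 12.4 to 16.6 RPKM. None of the 5 genes overlaps another annotated gene in this table of genes, which matters because no source used here says whether counting used strand.

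Other genes of G protein signalling were taken from 5 lists of 166 genes, of which 105 were in the table and tested. Over 12 libraries limma called 0 of the 105 between D and C. At an unadjusted p under 0.05 stood 31 of them, against 1817 of all 10021 genes. In the fit of the D and C libraries alone, which leaves out A1 and B1 among others, 14 passed, 9 higher and 5 lower in D, against 4.80% of all genes. Between B and A 5 passed over 12 libraries, 1 higher and 4 lower, against 2.23% of all genes. Of the 105 genes 0 passed with the mouse number as a block, 0 without any 1 of A2, A3, B2, B3 and D2, 1 without C2 or D3 and 3 without D1. The calls over all 10021 genes fell too, to 2 with the block, 0 without A2, B2 or B3 and 2 without A3 or D2. They were 63 without C2, 68 without D3 and 166 without D1. Between C and B and between D and A 0 passed. At an unadjusted p under 0.05 stood 15 and 32 of the 105, against 1342 and 1905 of all 10021 genes. The adjusted p-values below are those of limma.

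Among receptors, upstream of the RGS proteins, 29 of 56 were in the table. In the fit of D and C alone 5 were higher and 2 lower in D (0 over 12 libraries), where 4.80% of all genes passed. Cxcr5 stood at 12.7 to 13.5 RPKM in D and 4.52 to 5.24 in C, a log2 difference of 1.34 ± 0.08 (adjusted p = 5.96e-05). Ptger2, a receptor of prostaglandin that couples to Gs, stood at 2.17 to 2.91 RPKM in D and 0.428 to 0.658 in C (1.57 ± 0.15, adjusted p = 0.000657). Adora2a, an adenosine receptor that couples to Gs (0.71 ± 0.07, adjusted p = 0.000895), and Gpr83 (0.89 ± 0.13, adjusted p = 0.00663) were also higher in D. Gpr174 (0.76 ± 0.17) and Lpar5 (-0.38 ± 0.07), named after their values were seen, also passed. A1 held 12.6 RPKM of Cxcr5 and 2.93 RPKM of Ptger2, next to the values of D, and B1 held 5.13 and 0.684 RPKM. The median log2 difference of the list was 0.03 against 0.01 over all genes. Ccr7, which guides naive cells to lymph nodes, and S1pr1, which guides them out, were not called in D against C (-0.14 ± 0.06 and -0.05 ± 0.08 in the fit of D and C alone). Ccr7 lay at 201 to 251 RPKM and S1pr1 at 175 to 219 RPKM over the 12 libraries.

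Of the G protein subunits, the substrates of RGS proteins and their partners, 16 of 30 were in the table. Between D and C 0 passed in the fit of those libraries alone (median 0.04), where 4.80% of all genes passed. In that fit 3 of the 16 had an unadjusted p under 0.05 (limma), as had 1839 of all 10021 genes. Gnai2, the main Gi alpha subunit of lymphocytes, lay at 218 to 244 RPKM. Gng5, a gamma subunit, was lower in B than in A over 12 libraries (-0.20 ± 0.04, adjusted p = 0.0433).

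Of the relatives of the RGS family, which share its domain, 17 of 30 were in the table. In the fit of the D and C libraries alone 4 passed, 2 in each direction (median 0.02), where 4.80% of all genes passed. Rgs3 was higher in D (0.69 ± 0.08, adjusted p = 0.00270), as was Grk5, a receptor kinase that turns receptors off (0.76 ± 0.14, adjusted p = 0.0183). Arhgef11, an exchange factor with an RGS-like domain (-0.32 ± 0.07, adjusted p = 0.0354), and Axin2, a scaffold of Wnt signalling (-0.37 ± 0.08, adjusted p = 0.0458), were lower in D. Over 12 libraries the adjusted p was 0.106 for Rgs3, 0.110 for Grk5, 0.133 for Arhgef11 and 0.106 for Axin2. Arhgef1, an exchange factor that alpha subunits activate, was higher in B than in A over 12 libraries (0.25 ± 0.05, adjusted p = 0.0443).

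Of the effectors downstream 27 of 34 were in the table. In the fit of D and C alone 1 was higher and 1 lower in D (median -0.04), where 4.80% of all genes passed. Pde7a, which breaks down cyclic AMP, was higher (0.45 ± 0.06, adjusted p = 0.00539), and Pik3r5, a subunit of the lipid kinase that answers to beta-gamma subunits, was lower (-0.40 ± 0.06, adjusted p = 0.00744). Between B and A over 12 libraries Pde3b (-0.25 ± 0.05, adjusted p = 0.0463) and the receptors P2ry10 (-0.56 ± 0.10, adjusted p = 0.0367) and Gpr34 (-0.97 ± 0.21, adjusted p = 0.0463) were lower in B. Rap1b was lower in B in the fit of those 6 libraries alone (-0.35 ± 0.04, adjusted p = 0.0147) and not over 12 (adjusted p = 0.0528). Of 16 accessory proteins 16 were in the table. In the fit of D and C alone Gpsm1, which like Rgs14 holds GoLoco motifs, passed as higher in D (0.39 ± 0.08, adjusted p = 0.0352). The others of the list did not pass (median 0.02), where 4.80% of all genes passed. Over 12 libraries 0 of the 16 passed between D and C. Git2, given as a value, differed by 0.21 ± 0.05 between D and C in the fit of those libraries alone (adjusted p = 0.0675).

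**Figure D5:**
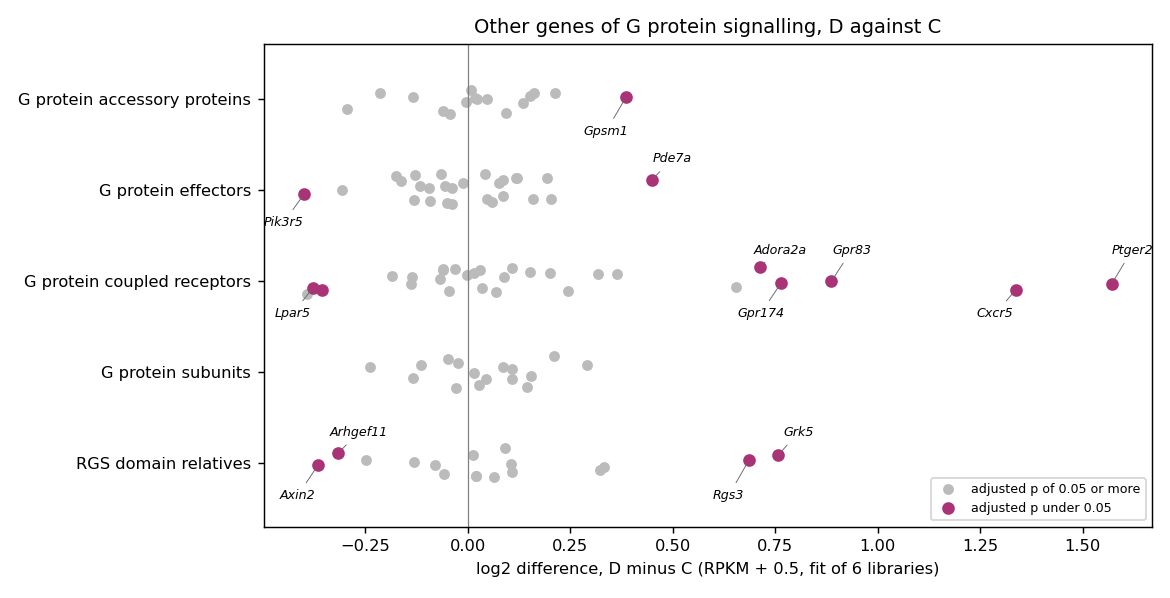
Log2 difference D minus C (horizontal axis, RPKM + 0.5) of 105 other genes of G protein signalling in 5 lists (vertical axis; position within a list is scatter only), fitted to the 6 libraries of D and C alone; purple points had an adjusted p under 0.05. The 14 purple points passed in this fit and 0 passed over 12 libraries, with Ptger2 (1.57) and Cxcr5 (1.34) farthest from 0.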

How the data were processed

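The authors deposited 1 table of RPKM values, per the file headers, with 10073 genes and a column for each of 12 libraries. Per the labels' protocols, sorted cells were lysed and frozen, polyadenylated RNA went through the Quick-RNA MicroPrep, SMART-seq v4 and NexteraXT kits. The submitters' processing notes name STAR, mm9 and mm10, with no role. The counting tool, annotation, strand and listing rule are points not given in the sources used here, and no coordinates were taken from the table. Multiplied by length and depth, 100% of the low values examined came out as whole reads (tolerance 0.1 read), which gave the depth of 6.31 to 9.07 M reads. Those reads served for counting intervals (95%, exact Poisson).

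The 10021 genes that averaged 0.5 RPKM or more were fitted with limma 3.58.1 in R 4.3.3, with a trend, on log2(RPKM + 0.5), with all 12 libraries and no block. Benjamini-Hochberg adjustment ran over all genes within a comparison, with 0.05 as threshold. Populations came from the titles. Tables used pandas 2.3.3 and numpy 2.4.6, intervals scipy 1.17.1 and plots matplotlib 3.10.9, all in Python 3.11.15, and the depth recovery and the limma step were tested on simulated data. The members and lists were chosen with earlier results of these data known. The rule for names took the 5 genes, the sort checks, up to 4 genes past the threshold from each list and comparison by smallest p, 2 as values where a list had none, and the 8 most alike genes for Rgs16 and 3 for the others, without clone names. It was applied to the 12-library and 6-library fits. Jchain, Cd79a, Ccr7, S1pr1, Gnai2 and the GC box and ATAAAA motifs were added after values or sequences were seen. Rgs14 had no promoter window in the RefSeq table. A list member and a neighbouring gene are not reported here.

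The labels give libraries of 1 number the same mouse. Deviations from the population means correlated at a mean of -0.072 across genes for same-numbered libraries (range -0.613 to 0.379), against 0.032 for others (-0.422 to 0.506). Of 18 same-numbered pairs 1 was above 0.1, and of 36 others 13 were. Hbb-bs, the 1 erythroid marker listed, lay at 6.98 RPKM in A1, 14.0 in B1, 4.78 in C2 and 12.7 in D2. It lay at 79.1 to 110.6 RPKM in the rest, so it did not follow the mouse numbers. The reason was not tested. The pairing, and with it every ratio within mice above, thus rests on the labels alone. The mouse number as a block was an alternative, and the p-values without it take libraries as independent. Alternatives were pseudocounts of 0.1 and 1, no filter, a filter of 5 RPKM, quantile normalization, the 6 libraries compared alone, the mouse block and leaving out each library. Leaving out A1 and B1, or also C3, was chosen after seeing the data.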

Additional observations from a re-analysis of the deposited data

How the results depend on the processing

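Rgs16 and Rgs10 kept the sign of all 4 differences under every alternative run. Not all of these runs could change them, since each is a difference of population means. No filter, the 6 libraries alone, the mouse block and leaving out libraries of other populations left the value as it was. Rgs16 ranged from 1.93 to 3.19 (log2) for D minus C, 0.28 to 2.60 for B minus A, -2.45 to -1.11 for C minus B and 1.12 to 2.69 for D minus A. Its B minus A value moved to 2.60 without A1 and B1, and was also 2.60 without C3 as well. A filter of 5 RPKM removed Rgs16, so no value was had there. Signs changed in 6 cases, all at values near 0, for Rgs14 (B minus A, -0.0029 without A1 and B1 and with C3 out too; D minus A, 0.0051 without A2 and 0.0115 without D1) and Rgs19 (B minus A, 0.0039 without A2 and 0.0304 without B2). Counts of genes past the threshold followed the libraries in the fit. For D minus C, 1 gene and 0 genes of the G protein lists passed over 12 libraries, against 481 and 14 with the 6 libraries alone, 765 and 20 without A1 and B1, 841 and 20 without C3 too, and 1 to 398 and 0 to 14 on leaving out single libraries (288 and 10 without A1, 398 and 14 without B1). For B minus A, 223 and 5 became 380 genes alone, 2 and 0 with the mouse number as a replicate block, 1094 and 20 without A1 and B1, 1638 and 32 without C3 too, and 0 to 461 and 0 to 7 on leaving out single libraries. For C minus B, 1 and 0 became 0 genes alone, 776 and 22 without A1 and B1, 873 and 23 without C3 too, and 0 to 386 and 0 to 9 on leaving out single libraries (highest without B1). For D minus A, 1 and 0 became 3 genes alone, 886 and 20 without A1 and B1, 1357 and 30 without C3 too, and 1 to 362 and 0 to 8 on leaving out single libraries (highest without A1). The block changed the count in no other comparison by over 1.5 times. The cause was not tested. Depth limits the low values of Rgs16, which rest on 2 to 9 reads.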
